A study of Homo sapiens with 18 samples.

Results

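The 53 genes described here encode the machinery of S phase and DNA replication, and they were measured as messenger RNA in U2932 and Ly1, cell lines of the human B cell cancer DLBCL (diffuse large B cell lymphoma). They were taken by gene name from the deposited table of read counts, where all 53 were found among 60656 genes, and they fall into 12 groups by role: the MCM2-7 helicase, origin recognition and licensing, helicase activation, polymerase alpha and primase, polymerases delta and epsilon, the sliding clamp and its loaders, single-strand DNA binding, Okazaki fragment joining, nucleotide supply, fork protection, chromatin assembly and DNA methylation, and a pair of genes for uracil excision and histone mRNA. The rule used names and no measured value, but it was set with earlier results of these data known. U2932 carries the submitters' label ABC (activated B cell type) and Ly1 the label GCB (germinal centre B cell type), a label they file under genotype although it names a subtype and not an allele. In each line 3 libraries came from cells given 1 µM SGC-GAK-1 for 24 h, 3 from cells given 1 µM for 12 h, and 3 from cells given the solvent DMSO, whose time is not stated. SGC-GAK-1 is a chemical probe that inhibits GAK, a kinase with roles in the uncoating of clathrin vesicles and at the mitotic spindle. The lines grew in different media, RPMI for U2932 and IMDM for Ly1, each with the same supplements (serum, antibiotics and plasmocin), so line and medium cannot be told apart. Each subtype is represented by a lone line, and no other inhibitor and no inactive relative of SGC-GAK-1 is among the 18 samples. The labels do not say that replicates were separate cultures, so the spread behind every p-value here is that between these libraries and may be technical.

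Before S phase, the origin recognition complex with CDC6 and CDT1 loads the ring-shaped MCM2-7 helicase onto DNA, and geminin then blocks CDT1 so that origins are not licensed again. CDC45 and the GINS complex switch the helicase on, polymerase alpha with primase starts each strand, polymerases delta and epsilon extend it behind the PCNA clamp, and FEN1 and LIG1 join the lagging-strand pieces. Many of these genes are induced by E2F factors at the end of G1 when RB is phosphorylated, so their mRNA is a familiar readout of the proliferating share of a lymphoma. Within that programme many helicase and licensing genes are highest near the boundary of G1 and S phase, while others stay high later in the cycle.

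The 18 libraries held 22549853 to 29386802 counts each, of which the 53 genes took 0.896% to 1.08%. Levels are given in CPM, which are counts scaled to a common library size with TMM factors; the limit set by a count of 0, taken as 3 counts, stood for 0.104 to 0.138 CPM and covers counting error only. None of the 53 came near that limit, and all were tested in every comparison. The 6 B cell markers were above 1 CPM in every library, with a summed level of 2191 to 2629 CPM in U2932 and 2597 to 3112 CPM in Ly1, while 6 T and NK cell markers summed to at most 2.34 CPM and 6 myeloid markers to at most 1.20 CPM. The 7 fibroblast and epithelial markers summed to 30.0 to 38.4 CPM in U2932 and 3.53 to 5.87 CPM in Ly1, most of it from EPCAM, an epithelial adhesion molecule, at 26.9 to 35.3 CPM in U2932 and 3.45 to 5.78 CPM in Ly1; what these add to the values of the replication genes was not tested. For the subtype labels, 5 markers of the activated B cell type summed to 751 to 846 CPM in U2932 and 119 to 249 CPM in Ly1, and 5 germinal centre B cell markers to 455 to 629 CPM in U2932 and 1264 to 1624 CPM in Ly1. One germinal centre marker, LMO2, went against the labels, at 5.07 to 19.0 CPM in U2932 and at most 0.0821 CPM in Ly1, and the other 4 were above 1 CPM in every library of both lines. GAK, the target of the compound, averaged a log2 difference between 24 h and DMSO of 0.11 ± 0.08 (SE) in U2932 (adjusted p = 0.623) and 0.05 ± 0.08 in Ly1 (adjusted p = 0.802); the compound acts on the protein, so its mRNA checks no label.

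In several groups the library numbered 3 differed from those numbered 1 and 2, also in the replication genes. In U2932 DMSO, the 53 genes were a median of -0.20 on the log2 scale away from the mean of replicates 1 and 2, and single genes reached -1.93. TK1, which phosphorylates thymidine, stood at 85.4, 84.0 and 22.2 CPM in the 3 U2932 DMSO libraries in the order of their numbers, CDC45 at 62.0, 60.3 and 28.3 CPM, and LIG1 at 149, 141 and 76.1 CPM. Other genes went the opposite way there: SLBP was at 247, 264 and 339 CPM and UNG at 160, 176 and 213 CPM. A list of 26 genes of G2 and mitosis was lower in the same library by a median of -1.19 on the log2 scale, all 26 below 0, and MYC was at 50.3 CPM against 323 and 343 CPM. Replicate 3 of U2932 stood apart at 12 h and 24 h as well. There the 26 genes had medians of -0.49 and 0.41. For 20 genes of the E2F and RB families and their kinases, the median deviation was 0.001 in DMSO, 0.14 at 12 h and -0.01 at 24 h. The lowest value on that list was -2.87 in DMSO, -2.77 at 12 h and -3.27 at 24 h, and the highest 0.63, 0.51 and 0.25. In Ly1 the widest deviation of the 53 was in 24 h replicate 3, where ORC1 was at 62.6 CPM against 33.6 and 39.6 CPM in replicates 1 and 2. ORC6 was at 50.6 CPM there against 73.9 and 69.0 CPM. In Ly1 DMSO replicate 3 the 26 genes of G2 and mitosis had a median of 0.45, with 0 below 0. The mitochondrial share of counts was 9.78% and 8.30% in Ly1 24 h replicates 1 and 2. It was 5.46% in 24 h replicate 3 and 4.72% to 6.82% in the DMSO and 12 h libraries of Ly1. Counts of calls, and values that turn on these libraries, are therefore given with and without replicate 3. Fits without replicate 3 rest on replicates 1 and 2 alone in each group, so their p-values measure the spread between those libraries only. Log2 CPM of replicates 1 and 2 correlated at 0.9928 to 0.9945 within a group. Those of replicate 3 correlated with either at 0.9803 to 0.9925.

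**Figure D1:**
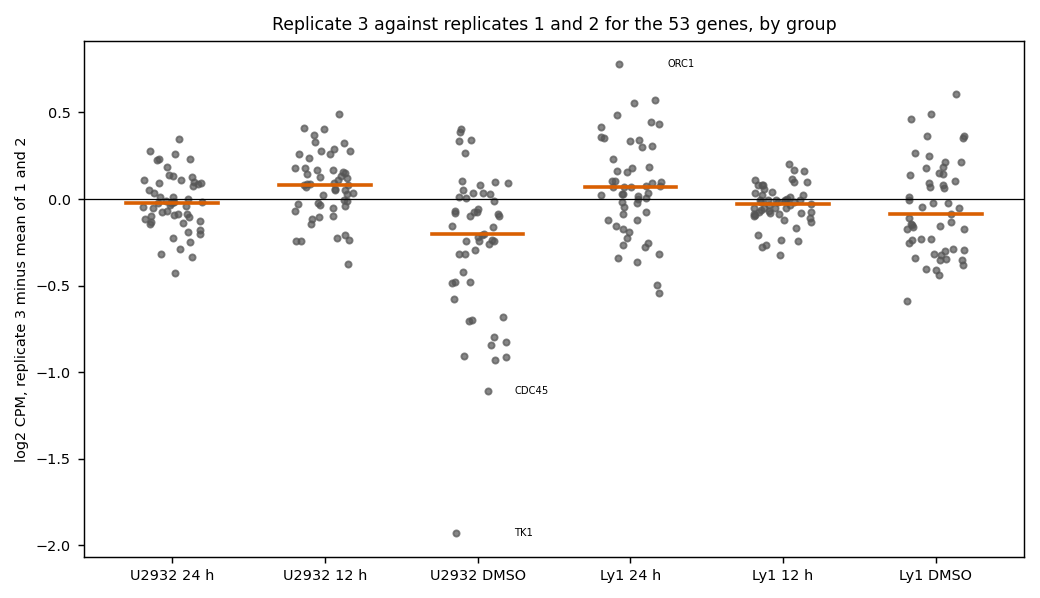
Log2 CPM of each of the 53 replication genes in replicate 3 minus the mean of replicates 1 and 2, for each group of U2932 and Ly1; a point is a gene and the orange line is the median of the 53. Points run down to -1.93 (TK1) in U2932 DMSO, while the widest deviation in Ly1 is 0.78 (ORC1 at 24 h).

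Per kilobase of exon, PCNA, the sliding clamp that tethers polymerases to DNA, had the highest level of the 53 in DMSO in each line, at 354 ± 17 CPM per kb in U2932 and 306 ± 35 CPM per kb in Ly1 (SD, 3 libraries each). MCM7, a helicase subunit, came next in each, at 142 ± 8.6 CPM per kb in U2932 and 213 ± 14 CPM per kb in Ly1. In U2932 it was followed by SLBP (140 ± 24 CPM per kb), whose libraries overlapped those of MCM7, and by MCM3 (130 ± 1.4 CPM per kb). In Ly1 it was followed by MCM3, at 124 ± 7.2 CPM per kb, and by MCM2 at 116 ± 5.7 CPM per kb, and their libraries overlapped. POLA2, the accessory subunit of polymerase alpha, had the lowest level in both, at 1.38 ± 0.26 CPM per kb in U2932 and 2.31 ± 0.54 CPM per kb in Ly1. The members whose place in the order of the 53 differed most between the lines were UNG (rank 12 in U2932 and 25 in Ly1), TYMS (rank 5 and 17) and SLBP (rank 3 and 14), which stood higher in the order of U2932, and MCM6 (rank 16 and 6) and POLD2 (rank 15 and 5), which stood lower in it. Levels per kilobase use exon lengths of GENCODE release 29, which matched all 53 by gene ID and may differ from the annotation the counts were made with.

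The stretch of DNA before the start of these genes is a property that the rule did not use. Of the 53, 46 had a promoter sequence in the RefSeq table (GRCh38.p14), as windows from 250 bases before to 50 bases after a start. Motifs were searched on both strands: the E2F-type heptamers TTCCCGC and TTGGCGC, the CCAAT box, and TTTGAA, which is found in the cell cycle genes homology region of mitotic promoters. Either E2F-type heptamer was found in 32 of the 46 (69.6%), against 10.96% of all 27305 genes in the table, and CCAAT in 60.9% against 39.7%. TTTGAA went the other way, in 8.70% against 18.2%. Counted over windows of equal length, the E2F-type share was 52.3% of 65 windows of the members against 9.23% of 35116 windows. A match of letters shows no binding. The 120 bases before the start are printed for 6 members with a match whose values are described below, chosen to span the roles, with the E2F-type heptamer in capitals (TTGGCGC, or GCGGGAA where TTCCCGC lies on the other strand), read 5′ to 3′ on the strand of the gene.
MCM6, chr2:135876444-135876563, minus strand: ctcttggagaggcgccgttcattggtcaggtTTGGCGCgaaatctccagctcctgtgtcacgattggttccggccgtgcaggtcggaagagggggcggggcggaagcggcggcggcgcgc
ORC1, chr1:52404424-52404543, minus strand: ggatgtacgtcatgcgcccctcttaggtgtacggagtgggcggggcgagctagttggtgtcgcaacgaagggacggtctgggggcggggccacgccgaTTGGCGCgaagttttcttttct
GINS2, chr16:85688955-85689074, minus strand: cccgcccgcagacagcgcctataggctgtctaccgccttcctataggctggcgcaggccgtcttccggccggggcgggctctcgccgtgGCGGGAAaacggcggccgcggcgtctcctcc
PCNA, chr20:5126623-5126742, minus strand: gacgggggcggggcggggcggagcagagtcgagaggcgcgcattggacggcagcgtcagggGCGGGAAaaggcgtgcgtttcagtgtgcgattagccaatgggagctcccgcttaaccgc
TYMS, chr18:657533-657652, plus strand: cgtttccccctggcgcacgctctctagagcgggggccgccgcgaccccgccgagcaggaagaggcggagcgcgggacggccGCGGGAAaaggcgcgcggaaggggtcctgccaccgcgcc
UNG, chr12:109097477-109097596, plus strand: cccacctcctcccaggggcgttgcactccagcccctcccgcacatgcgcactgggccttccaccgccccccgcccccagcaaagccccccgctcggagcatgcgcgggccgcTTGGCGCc
The first capital lies 89 bases before the start in MCM6, 59 in PCNA, 39 in TYMS, 31 in GINS2, 22 in ORC1 and 8 in UNG. MCM5, MCM4, GINS4, DSCC1, RPA2, RPA3 and POLD3 were not matched.

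The lines were compared in DMSO, in a fit over all 18 libraries with edgeR's quasi-likelihood test and Benjamini-Hochberg adjustment over all 16191 genes tested, at an adjusted p of 0.05. Of the 53 genes, 26 differed, 12 higher and 14 lower in U2932, in a comparison where 63% of all genes were called, 33.1% higher and 29.9% lower. The members' median log2 difference was 0.03, beside 0.02 over all genes tested, while single members differed by up to 1.30. Leaving out single DMSO libraries gave members' medians of -0.06 (without U2932 replicate 1) to 0.05 (without U2932 replicate 3), and the median was below 0 in all of these fits but the last. In 16 members every U2932 library lay above every Ly1 library, where 34.4% of all genes did, and in 13 every one lay below, where 30.9% did. These shares of the 53 are below those of all genes. In bulk RNA, fewer cells in a phase and less RNA per cell cannot be told apart. Without the replicate 3 libraries 37 members were called, 19 higher and 18 lower, where 73.4% of all genes were. Of the 26 calls, 16 were made in each of the 6 fits that left out a single DMSO library, and 10 were lost in at least 1 of them (MCM4, ORC1, ORC2, CDT1, GINS4, RFC2, RFC4, DSCC1, RPA2 and RPA3).

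The genes with the largest positive difference encode SLBP, which binds the stem-loop of histone mRNA, and UNG, which removes uracil from DNA. On hg38, SLBP lies at chr4:1692731-1712344, UNG at chr12:109097597-109110992, and TYMS and MCM6, described next, at chr18:657653-673578 and chr2:135839626-135876443. SLBP was at 247, 264 and 339 CPM in U2932 DMSO, against 123, 124 and 98.6 CPM in Ly1 DMSO. The lowest U2932 library lay above the highest of Ly1, with a log2 difference of 1.30 ± 0.13 (SE, adjusted p = 7.04e-08) and of 1.05 ± 0.05 without replicate 3. UNG was at 160, 176 and 213 CPM in U2932, against 83.9, 83.8 and 68.2 CPM in Ly1, again without overlap (1.22 ± 0.13, adjusted p = 2.19e-07). TYMS, thymidylate synthase, was at 287, 309 and 252 CPM in U2932 and at 127, 131 and 126 CPM in Ly1, a difference of 1.15 ± 0.09 (adjusted p = 5.24e-09). TYMS was the only one of 5 nucleotide supply genes to pass: RRM1, RRM2 and DUT had -0.12 ± 0.10, 0.16 ± 0.18 and -0.24 ± 0.14. RRM2 was called without replicate 3 (0.50 ± 0.05) and without U2932 DMSO replicate 3 alone (0.38). TK1 had -0.36 ± 0.34 with all libraries (adjusted p = 0.373) but 0.27 ± 0.06 (adjusted p = 0.000119) without replicate 3, the sign following the low U2932 library.

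The helicase split by subunit. MCM6 was lower in U2932, at 221, 241 and 239 CPM against 530, 503 and 391 CPM in Ly1, a log2 difference of -1.02 ± 0.12 (adjusted p = 5.36e-07) with a wide gap between the groups. MCM7 was lower as well, at 643, 643 and 578 CPM in U2932 against 952, 985 and 866 CPM in Ly1 (-0.59 ± 0.08, adjusted p = 6.67e-06). MCM4 was higher, at 626, 637 and 674 CPM against 537, 544 and 480 CPM (0.31 ± 0.11, adjusted p = 0.0225), but was not called without replicate 3 of U2932 DMSO (0.28) or of Ly1 DMSO (0.29) alone. MCM2, MCM3 and MCM5 had -0.06 ± 0.11, 0.07 ± 0.08 and -0.14 ± 0.08 and did not pass. The products of these 6 genes form a single ring. Without the replicate 3 libraries MCM2 (-0.12) and MCM5 (-0.22) were called lower too, and MCM4 was called higher (0.22 ± 0.05, adjusted p = 0.000198).

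Among origin and licensing genes, ORC1, ORC2 and GMNN were higher in U2932 and CDT1 was lower. GMNN, which encodes geminin, was at 113, 116 and 117 CPM in U2932, against 91.5, 90.5 and 71.3 CPM in Ly1 (0.45 ± 0.09, adjusted p = 0.000353). CDT1, the loader that geminin inhibits, was at 86.0, 84.6 and 79.6 CPM in U2932 and at 91.7, 94.3 and 102 CPM in Ly1, a small difference of -0.20 ± 0.08 (adjusted p = 0.0355). The groups did not overlap for GMNN or for CDT1. ORC1, the ATPase subunit of the origin recognition complex, was at 63.1, 65.4 and 47.9 CPM in U2932 and at 43.7, 42.6 and 46.0 CPM in Ly1 (0.41 ± 0.16, adjusted p = 0.0324). ORC2 differed by 0.23 ± 0.09 (adjusted p = 0.0351) with overlapping groups, while CDC6 (-0.20 ± 0.09) and ORC6 (0.16 ± 0.12) did not pass. Without replicate 3, ORC1 had 0.57 ± 0.07 (adjusted p = 9.29e-10), ORC2 0.36 ± 0.06 and CDT1 -0.13 ± 0.06 (adjusted p = 0.0404). CDC6 was then called lower too (-0.25 ± 0.05, adjusted p = 6.95e-05). ORC1 and ORC2 were not called without replicate 1 or 2 of either line's DMSO, at 0.33 to 0.40 for ORC1 and 0.18 to 0.20 for ORC2. CDT1 was not called without replicate 2 or 3 of either, at -0.22 to -0.13.

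The genes that switch the helicase on also differed in opposite directions. MCM10, needed to activate the loaded helicase, was at 66.0, 65.3 and 40.3 CPM in U2932, against 32.2, 33.5 and 34.3 CPM in Ly1 (0.78 ± 0.14, adjusted p = 0.00011). Its U2932 replicate 3 lay closest to the Ly1 libraries, and the difference was 1.00 ± 0.07 without replicate 3. GINS3 was higher in U2932 by 0.63 ± 0.09 (adjusted p = 1.2e-05) and GINS4 lower, with -0.53 ± 0.17 (adjusted p = 0.0129), both parts of the same complex. For GINS4 the log2 differences within numbers 1, 2 and 3 were -0.04, -0.22 and -1.44, and the gene was not called without replicate 3 of every group, nor without that of U2932 DMSO (-0.29) or of Ly1 DMSO (-0.33) alone. Whether numbers pair libraries between the lines was not tested. GINS1, GINS2 and CDC45 had -0.27 ± 0.12, 0.17 ± 0.08 and -0.28 ± 0.18, none of them past the test. With the replicate number as a block GINS2 passed (0.17 ± 0.07, adjusted p = 0.0374). Without replicate 3 GINS1 was called lower (-0.25 ± 0.07, adjusted p = 0.00149), and CDC45 changed sign without a call (0.07 ± 0.06).

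Within polymerase alpha the catalytic subunit was higher and the accessory subunit lower in U2932. POLA1 was at 148, 164 and 148 CPM in U2932 and at 85.7, 83.9 and 89.8 CPM in Ly1 (0.83 ± 0.11, adjusted p = 3.82e-06). POLA2 was at 9.19, 8.32 and 6.24 CPM in U2932 and at 13.9, 15.9 and 9.86 CPM in Ly1 (-0.74 ± 0.19, adjusted p = 0.00209). The groups were apart for POLA1 and, with a narrow gap, for POLA2. The primase genes PRIM1 and PRIM2 had -0.11 ± 0.16 and 0.03 ± 0.12, and PRIM2 had -0.18 ± 0.07 (adjusted p = 0.0269) without replicate 3.

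In the polymerases of leading and lagging strands the accessory subunits POLD2 and POLE2 differed with all libraries. POLD2, a structural subunit of polymerase delta, was at 225, 233 and 194 CPM in U2932, against 462, 456 and 360 CPM in Ly1 (-0.97 ± 0.10, adjusted p = 7.3e-08). POLE2, its counterpart in polymerase epsilon, was at 16.03, 16.03 and 8.48 CPM in U2932 and at 26.9, 25.9 and 23.4 CPM in Ly1 (-0.91 ± 0.19, adjusted p = 0.000467). Every U2932 library lay below every Ly1 library for both. The catalytic subunits POLD1 and POLE had differences of 0.11 ± 0.16 and 0.04 ± 0.11 with all libraries, and 0.43 ± 0.06 and 0.19 ± 0.06 without replicate 3, where both were called. The accessory subunits POLD3 and POLE3 did not pass with all libraries. Without replicate 3 POLD3 was called higher (0.21 ± 0.06, adjusted p = 0.0022) and POLE3 was not called (0.02 ± 0.05).

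Of the clamp and its loaders, RFC4 was higher in U2932 (0.30 ± 0.09, adjusted p = 0.00908) and RFC3 (-0.55 ± 0.15, 0.00328), DSCC1 (-0.50 ± 0.15, 0.00863) and RFC2 (-0.34 ± 0.12, 0.0222) were lower. RFC2, RFC3 and RFC4 belong to the loader that opens the clamp, and DSCC1 to an alternative loader. PCNA did not pass, at 495, 521 and 544 CPM in U2932 and 482, 478 and 392 CPM in Ly1 (0.21 ± 0.10, adjusted p = 0.0765), though its groups did not overlap, and it passed with the replicate number as a block (0.21 ± 0.08, adjusted p = 0.0342). RFC3 was at 50.4, 53.9 and 32.5 CPM in U2932 and at 62.5, 59.7 and 78.5 CPM in Ly1, with replicate 3 the lowest library in U2932 and the highest in Ly1, and its difference without replicate 3 was -0.23 ± 0.06. RFC4 was not called without U2932 DMSO replicate 1 (0.23), DSCC1 without U2932 DMSO replicate 3 (-0.35), and RFC2 without U2932 DMSO replicate 3 (-0.27) or Ly1 DMSO replicate 1 (-0.28) or 2 (-0.27). Without replicate 3 of every group RFC4 (0.35 ± 0.06), DSCC1 (-0.46 ± 0.08) and RFC2 (-0.39 ± 0.06) were all called.

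The remaining roles gave 5 calls. RPA2 and RPA3, subunits of the complex that coats single-stranded DNA, were lower in U2932, with -0.36 ± 0.14 (adjusted p = 0.0314) and -0.39 ± 0.12 (adjusted p = 0.00872). RPA2 overlapped, at 101, 104 and 134 CPM in U2932 and 163, 155 and 117 CPM in Ly1, with replicate 3 of each line lying between replicates 1 and 2 of U2932 and those of Ly1. Without replicate 3 RPA2 had -0.63 ± 0.05, and it was not called without replicate 1 or 2 of either line's DMSO (-0.31 to -0.27). RPA3 was at 32.9, 34.1 and 24.1 CPM in U2932 and 38.9, 38.2 and 42.7 CPM in Ly1, without overlap. It had -0.21 ± 0.07 (adjusted p = 0.00836) without replicate 3, and it was not called without replicate 3 of U2932 DMSO (-0.25) or of Ly1 DMSO (-0.31) alone. TIMELESS, of the fork protection complex, was at 171, 171 and 105 CPM in U2932 and 202, 198 and 238 CPM in Ly1 (-0.51 ± 0.13, adjusted p = 0.00272), while its partner TIPIN had 0.18 ± 0.14. The TIMELESS difference was -0.23 ± 0.05 (adjusted p = 0.000105) without replicate 3 and -0.31 without U2932 DMSO replicate 3 alone. The subunits of chromatin assembly factor 1 went apart: CHAF1A was higher, at 158, 154 and 146 CPM in U2932 against 96.6, 103 and 110 CPM in Ly1 (0.56 ± 0.08, adjusted p = 4.41e-06), and CHAF1B lower, at 37.7, 42.3 and 37.8 CPM against 56.9, 60.9 and 50.1 CPM (-0.51 ± 0.10, adjusted p = 0.000333). The groups did not overlap for either subunit. FEN1, which trims flaps on the lagging strand, and LIG1, the ligase, had 0.13 ± 0.10 and 0.05 ± 0.18, and UHRF1 and DNMT1, which maintain DNA methylation behind the fork, had -0.09 ± 0.10 and 0.05 ± 0.11. Without replicate 3 LIG1 (0.48 ± 0.05) and DNMT1 (0.27 ± 0.05) were called, and LIG1 also without U2932 DMSO replicate 3 alone (0.30).

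**Figure D2:**
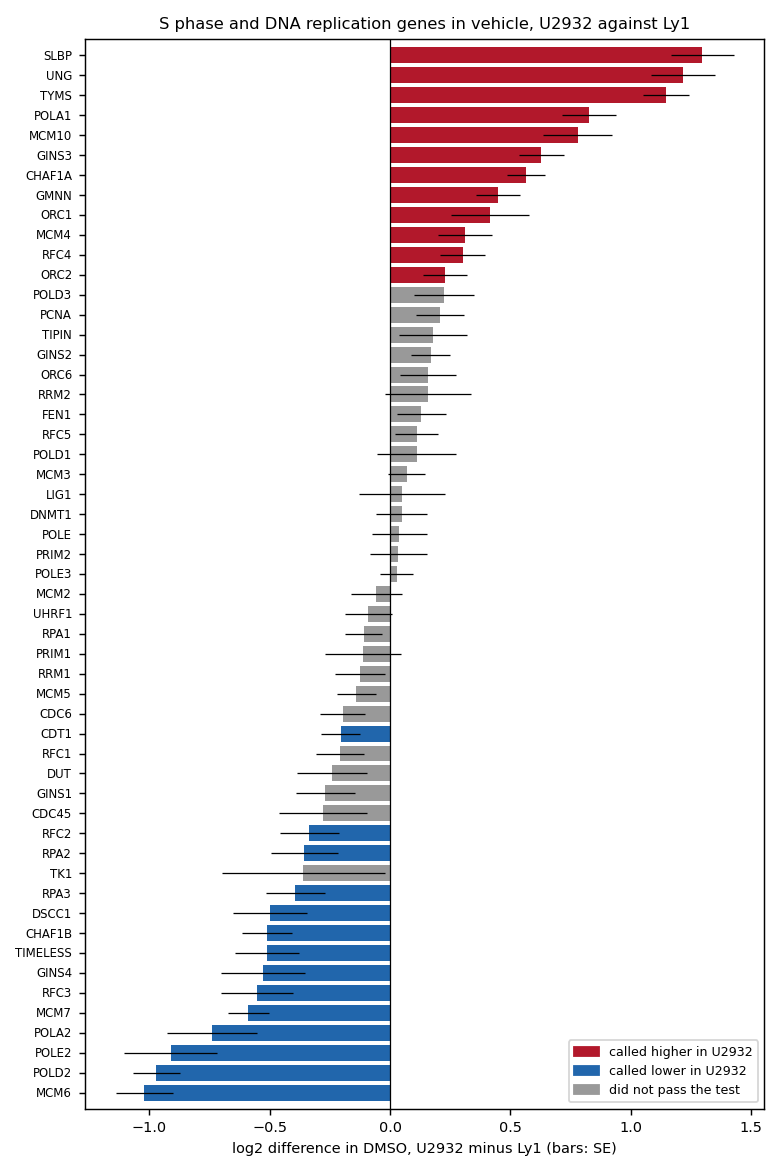
Log2 difference in DMSO of each of the 53 replication genes, U2932 minus Ly1, with bars for the SE of the fit over 18 libraries; red genes were called higher in U2932, blue genes lower, and grey genes did not pass. The 12 called higher run from 0.23 (ORC2) up to 1.30 (SLBP) and the 14 called lower from -0.20 (CDT1) down to -1.02 (MCM6).

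The treatment was then compared with DMSO within each line, which asks whether the treated libraries differed from DMSO in the replication genes. Whether a difference comes from inhibiting GAK was not tested. With all libraries, none of the 53 genes passed at 24 h in U2932, where 0% of 15138 genes were called, or in Ly1, where 0.55% of 14005 genes were. At an unadjusted p under 0.05 there were 15 members in U2932, where 11.3% of all genes were, and 15 in Ly1, where 16.5% were. Limma voom called none of them in either line. DESeq2 called 1 in U2932 (ORC6), where it called 1.04% of all genes, and 7 in Ly1 (ORC6, CDC45, GINS2, RFC3, RPA3, TK1 and UHRF1), where it called 4.09%. The median log2 change of the members was 0.00 in U2932, 27 of 53 above 0 where 50.5% of all genes were, and 0.08 in Ly1, 36 of 53 above 0 where 48.3% were. Over all genes tested the medians were 0.00 in U2932 and -0.01 in Ly1. In U2932, every treated library lay above every DMSO library for 6 members and below for 16, where 7.93% and 10.9% of all genes did. In Ly1, 12 lay above and 1 below, where 8.15% and 7.78% did. The 26 genes of G2 and mitosis had medians of 0.43 in U2932, with none called, and 0.78 in Ly1, with 16 called higher, among them CCNB1, the main mitotic cyclin, at 1.24 ± 0.20 (adjusted p = 0.0392). Within numbers 1, 2 and 3 the medians of that list were -0.03, -0.06 and 1.53 in U2932 and 1.01, 1.07 and 0.34 in Ly1; what a shift between cell cycle phases contributes to the values of the replication genes was not tested.

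Without the replicate 3 libraries 13 members were called in U2932 at 24 h, 2 higher and 11 lower, where 9.01% of all genes were called, and 29 in Ly1, 18 higher and 11 lower, where 46.2% were. The 11 lower in U2932 were POLA1 (-0.27 ± 0.06), RRM2 (-0.26 ± 0.06), RRM1, UNG, MCM2, POLD3, GINS2, MCM5, RPA2, MCM4 and MCM7, and the 2 higher were ORC2 (0.21 ± 0.06) and ORC6 (0.30 ± 0.07). In Ly1 the lower genes ran from MCM5 (-0.13 ± 0.05) down to POLD3 (-0.62 ± 0.07) and the higher ones from PCNA (0.16 ± 0.05) up to TK1 (1.02 ± 0.06). The members' medians were then -0.07 in U2932 and 0.03 in Ly1. Leaving out only replicate 1 or only replicate 2, of Ly1 24 h or of Ly1 DMSO, gave 0 calls over all genes at 24 h in Ly1. The calls in Ly1 without replicate 3 thus depend on which library is left out. In U2932 replicate numbers were taken to pair the libraries, with correlations of 0.336 to 0.564 between same-numbered deviations from the group means. The correlation was highest with the same number for 2 of the 3 numbers. What the deviation of replicate 3 adds to these correlations was not tested. With number as a block 6 members were called, 2 higher and 4 lower, where 4.41% of all genes were. In Ly1 the numbers did not pair 24 h with DMSO.

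The helicase genes had the lowest median of the 12 role groups at 24 h in Ly1, and in U2932 the lowest but for the pair of UNG and SLBP (-0.34). The median log2 change of MCM2 to MCM7 was -0.24 in U2932, all 6 below 0, and -0.18 in Ly1, 5 of 6 below 0. MCM2 was at 467, 451 and 453 CPM in U2932 at 24 h, against 528, 545 and 567 CPM in DMSO, every treated library below every DMSO library (-0.23 ± 0.07, adjusted p = 0.291; with the block -0.23 ± 0.06, adjusted p = 0.0395). MCM5 in U2932 was at 406, 408 and 354 CPM at 24 h and at 475, 462 and 503 CPM in DMSO (-0.28 ± 0.08, adjusted p = 0.277; with the block -0.28 ± 0.07, adjusted p = 0.0398). In Ly1, MCM2 was at 390, 410 and 545 CPM at 24 h, against 570, 596 and 540 CPM in DMSO, and MCM6 at 339, 356 and 428 CPM against 530, 503 and 391 CPM. For both genes replicates 1 and 2 of Ly1 at 24 h lay below every DMSO library and replicate 3 did not, so that the groups overlapped. For MCM6 the gap to the lowest DMSO library was small, at 356 against 391 CPM. The fitted changes in Ly1 were -0.34 ± 0.12 for MCM2 (adjusted p = 0.221) and -0.34 ± 0.13 for MCM6 (adjusted p = 0.237), and without replicate 3 they were -0.54 ± 0.05 (adjusted p = 6.9e-09) and -0.56 ± 0.05 (adjusted p = 2.08e-09). Without those libraries 4 of the 6 helicase genes were called lower in U2932 (MCM2, MCM4, MCM5 and MCM7) and 4 in Ly1 (MCM2, MCM4, MCM5 and MCM6), and none higher, in fits that called 4.34% of all genes lower in U2932 and 23.9% in Ly1.

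**Figure D3:**
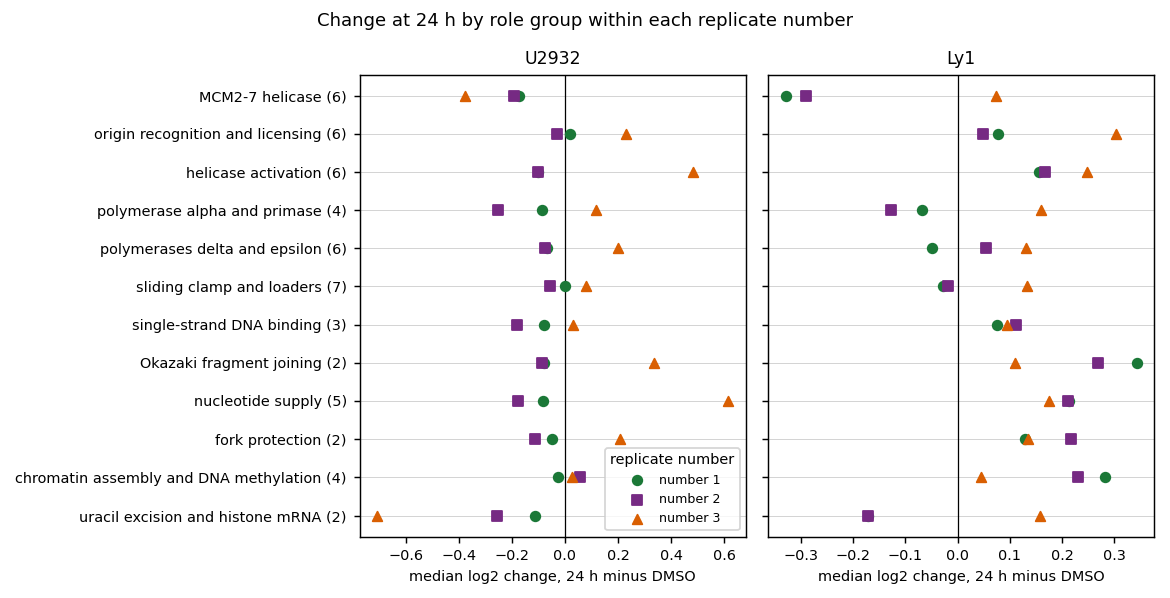
Median log2 change at 24 h minus DMSO of each role group, computed within each replicate number, in U2932 and Ly1; the number of genes is in brackets. The helicase medians were -0.17, -0.19 and -0.38 in U2932 and -0.33, -0.29 and 0.07 in Ly1 for numbers 1, 2 and 3, and those of nucleotide supply in U2932 were -0.08, -0.18 and 0.62. Numbers did not pair 24 h with DMSO in Ly1.

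The origin and licensing genes had medians of 0.09 in U2932 and 0.10 in Ly1. ORC6, a subunit of the origin recognition complex that also has a role in cytokinesis, was at 55.9, 56.5 and 67.2 CPM in U2932 at 24 h, against 49.4, 43.1 and 47.1 CPM in DMSO. In Ly1 it was at 73.9, 69.0 and 50.6 CPM at 24 h, against 42.8, 41.6 and 40.7 CPM in DMSO. Every treated library lay above every DMSO library in both lines. The changes were 0.39 ± 0.09 in U2932 (adjusted p = 0.25; with the block 0.39 ± 0.08, adjusted p = 0.0228) and 0.63 ± 0.13 in Ly1 (adjusted p = 0.0612). ORC2 in U2932 was at 69.8, 71.7 and 80.3 CPM at 24 h and 60.8, 63.0 and 52.3 CPM in DMSO (0.36 ± 0.10, adjusted p = 0.264; with the block 0.36 ± 0.08, adjusted p = 0.0358). The value of ORC1 in Ly1 turned with replicate 3. It was at 33.6, 39.6 and 62.6 CPM at 24 h, against 43.7, 42.6 and 46.0 CPM in DMSO, with a change of 0.04 ± 0.19 with all libraries and -0.23 ± 0.08 (adjusted p = 0.0164) without replicate 3. CDC6, CDT1 and GMNN had changes of at most 0.11 in size in either line, with adjusted p-values of 0.596 and above.

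Of the genes that activate the helicase, GINS2 had values of opposite sign in the lines. It was at 115, 108 and 113 CPM in U2932 at 24 h, against 127, 131 and 132 CPM in DMSO, and at 160, 152 and 138 CPM in Ly1 at 24 h, against 121, 118 and 107 CPM in DMSO. The treated libraries were all below DMSO in U2932 (-0.19 ± 0.06, adjusted p = 0.345) and all above it in Ly1 (0.38 ± 0.09, adjusted p = 0.089). CDC45 in Ly1 was at 77.5, 71.9 and 73.6 CPM at 24 h and at 58.9, 57.4 and 66.2 CPM in DMSO (0.29 ± 0.09, adjusted p = 0.161). Without replicate 3 the changes in Ly1 were 0.39 ± 0.06 for GINS2 and 0.37 ± 0.06 for CDC45, and both were called. In U2932 CDC45 and GINS4 had 0.24 ± 0.25 and 0.41 ± 0.20, with number 3 apart from the others: CDC45 had -0.02, -0.07 and 0.99 within numbers 1, 2 and 3. MCM10 had 0.16 ± 0.16 in U2932 and 0.08 ± 0.11 in Ly1.

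The polymerase groups gave no call with all libraries. PRIM2, the regulatory primase subunit, was at 38.2, 39.7 and 45.7 CPM in U2932 at 24 h and at 42.1, 52.0 and 59.1 CPM in DMSO (-0.28 ± 0.12, adjusted p = 0.433), and passed with the block (-0.28 ± 0.07, adjusted p = 0.0473). POLD3, an accessory subunit of polymerase delta, had the lowest value of the 53 in Ly1: it was at 49.2, 49.1 and 73.0 CPM at 24 h, against 75.9, 75.6 and 74.5 CPM in DMSO. The groups did not overlap, but replicate 3 lay just below DMSO, and the change was -0.40 ± 0.14 (adjusted p = 0.211), or -0.62 ± 0.07 (adjusted p = 1.91e-08) without replicate 3. POLE2 had 0.08 ± 0.25 in U2932 and 0.30 ± 0.11 in Ly1, and POLA1 had -0.24 ± 0.11 and -0.05 ± 0.11.

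RFC3 had the highest value of the 7 clamp and loader genes in each line. In Ly1 it was at 85.9, 88.8 and 99.5 CPM at 24 h, against 62.5, 59.7 and 78.5 CPM in DMSO, without overlap (0.45 ± 0.12, adjusted p = 0.131). Without replicate 3 it had 0.52 ± 0.06 there (adjusted p = 2.29e-07). In U2932 it was at 57.3, 55.0 and 58.3 CPM at 24 h and 50.4, 53.9 and 32.5 CPM in DMSO (0.34 ± 0.17, adjusted p = 0.477). PCNA had -0.20 ± 0.08 in U2932 and 0.20 ± 0.10 in Ly1, with adjusted p-values of 0.423 and 0.363. RPA2 in U2932 was at 92.1, 87.4 and 96.8 CPM at 24 h and 101, 104 and 134 CPM in DMSO (-0.28 ± 0.12, adjusted p = 0.434; with the block -0.26 ± 0.07, adjusted p = 0.0478), all treated libraries below DMSO. RPA3 in Ly1 was at 55.3, 54.5 and 45.6 CPM at 24 h and 38.9, 38.2 and 42.7 CPM in DMSO (0.38 ± 0.10, adjusted p = 0.131). Without replicate 3 it had 0.52 ± 0.07 (adjusted p = 8.93e-07).

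TK1 had the highest log2 change of the 53 at 24 h in each line, and of the 53 its DMSO replicate 3 also lay farthest from the other replicates, by -1.93 in U2932 and 0.60 in Ly1 on the log2 scale. In U2932 it was at 94.6, 88.9 and 107 CPM at 24 h, against 85.4, 84.0 and 22.2 CPM in DMSO, a change of 0.62 ± 0.43 (adjusted p = 0.631) that was 0.15 and 0.08 within numbers 1 and 2. In Ly1 it was at 149, 134 and 118 CPM at 24 h, against 68.2, 71.6 and 106 CPM in DMSO (0.70 ± 0.16, adjusted p = 0.0857). The treated libraries lay above DMSO in both lines, and in Ly1 the change without replicate 3 was 1.02 ± 0.06 (adjusted p = 9.31e-13). RRM2, a subunit of ribonucleotide reductase, was at 326, 323 and 347 CPM in U2932 at 24 h and 374, 412 and 226 CPM in DMSO, where numbers 1 and 2 lay below their DMSO libraries and number 3 above. TYMS had -0.06 ± 0.09 in U2932 and 0.15 ± 0.10 in Ly1, and DUT, which destroys dUTP, 0.18 ± 0.19 and 0.20 ± 0.08.

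LIG1 in Ly1 was at 155, 154 and 142 CPM at 24 h, against 101, 107 and 146 CPM in DMSO, so that replicates 1 and 2 stood well above their DMSO libraries and replicate 3 did not (0.35 ± 0.13, adjusted p = 0.242). UHRF1 in Ly1 was at 304, 308 and 313 CPM at 24 h and at 243, 258 and 263 CPM in DMSO, without overlap (0.28 ± 0.08, adjusted p = 0.159). FEN1 and CHAF1A had at most 0.13 in size in either line with all libraries. Without replicate 3 in Ly1, LIG1 (0.58 ± 0.06), UHRF1 (0.30 ± 0.05) and CHAF1A (0.23 ± 0.06, adjusted p = 0.00235) were called higher, and FEN1 was not called (0.05 ± 0.05). UNG had the lowest value in U2932, at 146, 137 and 119 CPM at 24 h against 160, 176 and 213 CPM in DMSO, all treated libraries below DMSO (-0.42 ± 0.12, adjusted p = 0.291). SLBP lay below DMSO in U2932 as well, at 232, 237 and 227 CPM at 24 h and 247, 264 and 339 CPM in DMSO (-0.26 ± 0.12, adjusted p = 0.439), and had 0.03 ± 0.12 in Ly1.

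**Figure D4:**
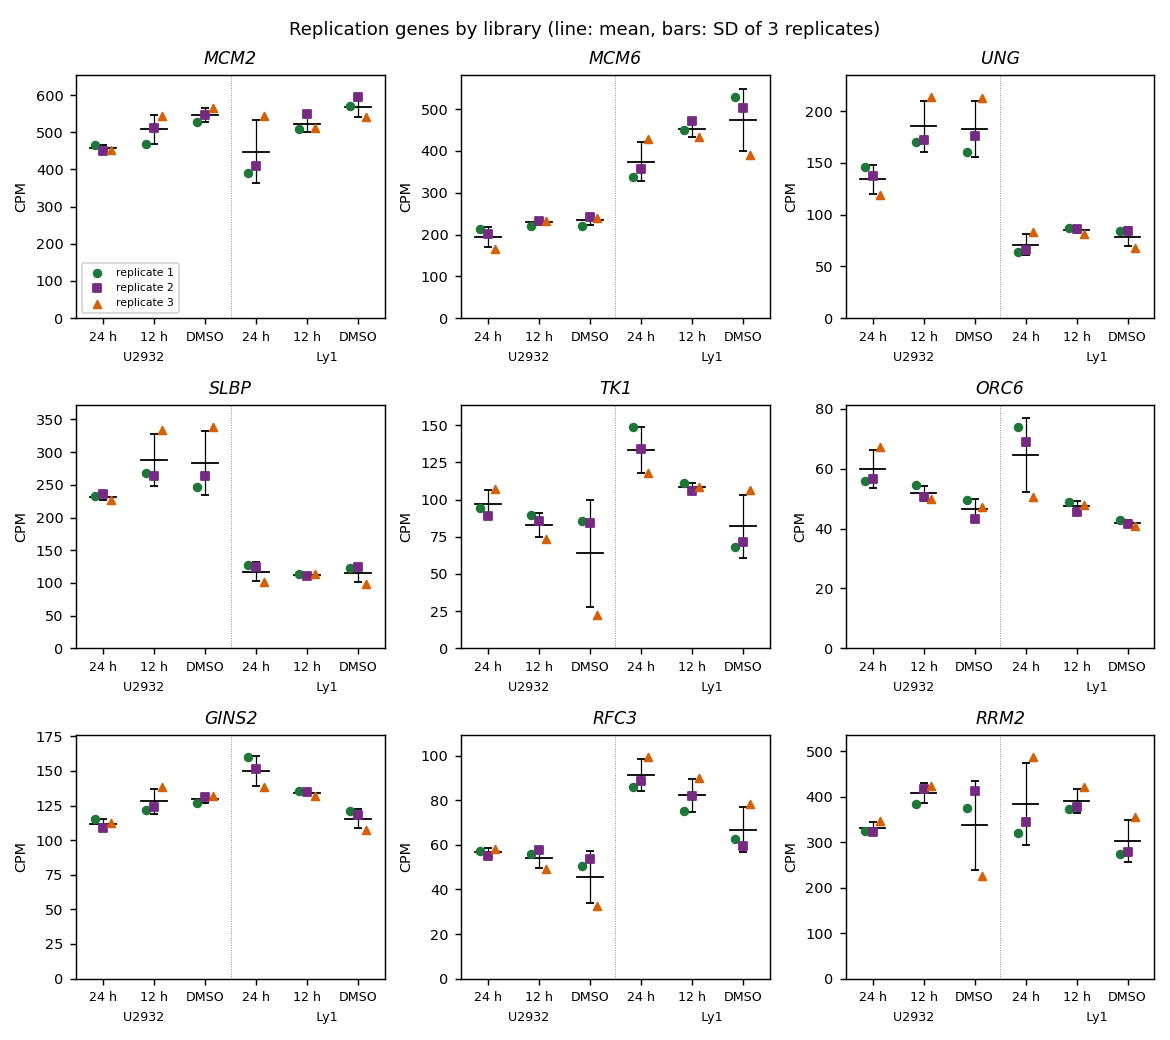
CPM of 9 replication genes in each of the 18 libraries, by group, with a symbol for each replicate number, a line at the mean and bars for the SD of 3 replicates. U2932 lies below Ly1 for MCM6 and above it for UNG and SLBP in every group, and replicate 3 of U2932 DMSO lies far below its partners for TK1 (22.2 CPM against 85.4 and 84.0 CPM).

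At 12 h none of the 53 passed in either line, where 0% of all genes were called in each, and 5 members in U2932 and 8 in Ly1 had an unadjusted p under 0.05. Of all genes 3.42% in U2932 and 6.13% in Ly1 were under that p. DESeq2 called 0 in U2932 and 1 in Ly1, DUT, where it called 0.671% of all genes in Ly1. The 12 h and 24 h comparisons share their DMSO libraries. The members' median was 0.09 in U2932, 46 of 53 above 0 where 48.6% of all genes were, and 0.10 in Ly1, 41 above 0 where 48.7% were. In U2932 the median was 0.02, 0.02 and 0.24 within numbers 1, 2 and 3, and 0.01 without replicate 3. In Ly1 it was 0.10, 0.11 and 0.13. The nucleotide supply genes had the highest median of the role groups in each line, 0.27 in U2932 and 0.30 in Ly1, with all 5 above 0; in U2932 it was 0.07, 0.02 and 0.81 within numbers 1, 2 and 3, and in Ly1 0.41, 0.27 and 0.22. DUT in Ly1 was at 229, 214 and 207 CPM at 12 h against 172, 178 and 176 CPM in DMSO (0.30 ± 0.08, adjusted p = 0.394), and UHRF1 at 292, 312 and 323 CPM against 243, 258 and 263 CPM (0.27 ± 0.08, adjusted p = 0.498). ORC1 in Ly1 was at 53.5, 57.4 and 59.4 CPM at 12 h, above all DMSO libraries at 43.7, 42.6 and 46.0 CPM (0.36 ± 0.18, adjusted p = 0.872). In Ly1, every 12 h library lay above every DMSO library for 14 members, where 8.15% of all genes did, and 1 below it (POLD3), where 7.04% did. In U2932, 7 lay above, where 3.77% did, and 0 below, where 4.6% did. Without replicate 3, 13 members were called in Ly1 at 12 h, 12 higher and 1 lower, where 9% of all genes were called, and 1 in U2932 (POLA1, -0.23 ± 0.06), where 2.86% were. Those higher in Ly1 were led by TK1 (0.64 ± 0.06), LIG1 (0.46 ± 0.06), RRM2 (0.44 ± 0.05) and ORC1 (0.36 ± 0.07), and the lower gene was MCM6 (-0.16 ± 0.05).

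Between 24 h and 12 h no member passed in either line, where 0% of all genes were called in each, and DESeq2 called 0 of them in each. In U2932, 20 had an unadjusted p under 0.05, where 8.42% of all genes had, the median was -0.13, and the medians within numbers 1, 2 and 3 were -0.10, -0.13 and -0.20, all below 0. Of the 53, 16 were above 0, where 51% of all genes were. In 28 members every 24 h library lay below every 12 h library, where 10.6% of all genes did, and in 4 (ORC2, ORC6, POLD1 and POLE) every one lay above, where 8.84% did. The 28 include all 6 helicase genes, CDC6, CDT1, GMNN, PCNA, FEN1, LIG1, TYMS, RRM1, RRM2, UNG and SLBP. UNG was at 146, 137 and 119 CPM at 24 h, against 170, 172 and 214 CPM at 12 h (-0.44 ± 0.12, adjusted p = 0.434). CHAF1B was at 34.4, 35.0 and 32.4 CPM at 24 h and 40.0, 41.2 and 49.3 CPM at 12 h (-0.34 ± 0.09, adjusted p = 0.434). The gap was widest within number 3 for both genes, whose 12 h replicate 3 was also their highest library. Without replicate 3, 9 members were called lower in U2932 and none higher, where 6.19% of all genes were called, led by RRM2 (-0.29 ± 0.06) and PRIM2 (-0.29 ± 0.08). In Ly1, 6 members lay above 12 h in every library and 5 below, where 8.42% and 8.32% of all genes did, and 25 changes were above 0, where 51.3% were. The median there was -0.02 with 4 members at an unadjusted p under 0.05, where 10.3% of all genes were, and without replicate 3 it was -0.05 with 26 called, 10 higher and 16 lower, where 41.7% of all genes were called. Of these ORC1 (-0.59 ± 0.08), POLD3 (-0.54 ± 0.07) and PRIM1 (-0.49 ± 0.10) had the lowest values and ORC6 (0.60 ± 0.07) and POLA2 (0.44 ± 0.10) the highest.

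Whether the response differed between the lines was tested as U2932 minus Ly1. At 24 h none of the 53 passed, where 0% of 16191 genes were called, and 3 members had an unadjusted p under 0.05, where 8.33% of all genes had. The lowest adjusted p of the members was that of GINS2, with a difference of -0.59 ± 0.11 (adjusted p = 0.183). It was -0.55, -0.63 and -0.59 within numbers 1, 2 and 3. Such matching was not tested between the lines, and numbers did not pair 24 h with DMSO in Ly1. GINS2 passed with the block (-0.59 ± 0.10, adjusted p = 0.0199), where 0.278% of all genes were called, and by DESeq2, where 0.346% were. PCNA followed with -0.42 ± 0.14 (adjusted p = 0.431). Without replicate 3, 21 members were called, 6 higher and 15 lower in U2932 relative to Ly1, where 26.6% of all genes were called. TK1 (-0.85 ± 0.08), LIG1 (-0.58 ± 0.08) and GINS2 (-0.54 ± 0.08) had the lowest values there, and PRIM1 (0.47 ± 0.13), MCM6 (0.46 ± 0.08) and POLD3 (0.45 ± 0.09) the highest, and these 3 genes were called lower at 24 h in Ly1 without replicate 3. At 12 h none passed, where 0% of all genes did, 0 had an unadjusted p under 0.05, where 2.5% of all genes had, and DESeq2 called 0. Without replicate 3, 6 members were called at 12 h, where 4.5% of all genes were: TK1 (-0.56 ± 0.09), RRM2 (-0.39 ± 0.08), POLA1 (-0.36 ± 0.08), LIG1 (-0.34 ± 0.08) and DNMT1 (-0.28 ± 0.07) lower, and POLA2 (0.56 ± 0.17) higher.

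Of 36 other replication genes, which the 53 do not include, 23 differed between the lines in DMSO, 6 higher and 17 lower in U2932, with a median log2 difference of -0.28, in the comparison where 63% of all genes were called, 33.1% higher and 29.9% lower. Higher were SAMHD1, which degrades deoxynucleotides (1.33 ± 0.16), DBF4B, a relative of the activator of the kinase CDC7 (0.95 ± 0.24), the histone chaperone gene SUPT16H (0.82 ± 0.08), MCM8 (0.57 ± 0.13) and DONSON (0.53 ± 0.11). Lower, with the largest sizes, were MCM9 (-1.29 ± 0.15), the ribonucleotide reductase subunit RRM2B (-1.29 ± 0.21), MTBP (-1.14 ± 0.12), POLE4 of polymerase epsilon (-1.10 ± 0.12) and the nuclease gene DNA2 (-1.08 ± 0.24). At 24 h in Ly1, DBF4, which activates CDC7 at origins, rose by 0.43 ± 0.08 (adjusted p = 0.048), the only call among the 34 of these genes tested there, and none of the 35 tested in U2932 passed. Of 20 genes of the E2F and RB families and their kinases, 15 differed in DMSO, 7 higher and 8 lower in U2932, where 63% of all genes were called. E2F1, an activator of replication genes, was lower in U2932 (57.1, 54.5 and 46.9 CPM, against 78.4, 79.7 and 81.9 CPM in Ly1, a difference of -0.60 ± 0.08 with adjusted p = 2.84e-06). None of those tested passed at 24 h or 12 h in either line, and E2F1 at 24 h had 0.25 ± 0.09 in U2932 (adjusted p = 0.35) and 0.02 ± 0.08 in Ly1 (adjusted p = 0.908).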

How the data were processed

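The deposited table holds the authors' read counts per gene, as whole numbers, for 60656 genes in 18 libraries, with gene names and hg38 coordinates. Per the labels' protocols, mRNA libraries came from a NuGEN Universal Plus mRNA-Seq kit, with 14 cycles of PCR, and reads of 2 NovaSeq runs were combined. Per the submitters' processing notes, cutadapt, STAR and Picard were used with hg38. Tool versions, the counting tool, the annotation and the strand setting are not stated in the sources used, so reads of genes on opposite strands may not be told apart.

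Genes were tested with edgeR 4.0.16 (TMM, filterByExpr, robust quasi-likelihood F test, Benjamini-Hochberg over all genes tested, adjusted p under 0.05). Each line was fitted on its 9 libraries (14005 genes in Ly1, 15138 in U2932), and line differences on all 18 (16191 genes). SE are the log2 change over the root of F. CPM use the TMM factors of the 18-library fit, and changes within a replicate number are differences of log2 CPM with a prior count of 2. The fit was tested on simulated counts with the same dispersion for every gene and no difference between replicate numbers. These data differ in that, so the simulation does not show how the fit does here. R was 4.3.3, limma 3.58.1, DESeq2 1.42.0 and Python 3.11.15. The alternatives were other scalings, DESeq2, limma voom, no filter, only the compared groups, the replicate block, and leaving out libraries. The members and lists were chosen with earlier results of these data known. Named genes were all members called, the member with the largest change of each role group, 24 fixed members, and up to 5 other replication genes each way.

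The labels number replicates without saying what a number stands for. Numbers were taken to pair libraries where same-numbered deviations from group means correlated above 0.1 for all 3 numbers. They did in U2932 (0.336 to 0.666 over its 3 comparisons) and for 12 h with DMSO (0.213 to 0.434) and 24 h with 12 h (0.100 to 0.331) in Ly1, but not for 24 h with DMSO in Ly1 (0.0729 to 0.211). No label states this pairing. Replicate 3 of U2932 stood apart in each group, and what that adds to the correlations there was not tested.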

Additional observations from a re-analysis of the deposited data

How the results depend on the processing

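Each member was set against the main edgeR fit in every setting, called or not. The sign differed at 24 h in 57 of 742 values in Ly1 and 49 of 742 in U2932. At 12 h it differed in 32 and 63 of 742, and for 24 h against 12 h in 52 and 19. Between the lines in DMSO it differed in 22 of 742. For the responses at 24 h and 12 h it differed in 84 and 143 of 1007. With the replicate block, members called became 6 at 24 h in U2932 and 1 for the line difference in response at 24 h, and 3 at 24 h in Ly1 (GINS2, RFC3 and ORC6), where the numbers do not pair and 1.96% of all genes were called; it gave 29 in DMSO, where 68.5% of all genes were called, adding PCNA (adjusted p = 0.0342), GINS2 (0.0374) and RFC1 (0.0416), and changed no other count. DESeq2 called 7 at 24 h and 1 at 12 h in Ly1, 1 at 24 h in U2932 and 1 for the response at 24 h, and no filter gave 4 at 24 h in Ly1, where it called 2.9% of all genes. Without replicate 3 of every group, calls were 29 (24 h), 13 (12 h) and 26 (24 h against 12 h) in Ly1, 13, 1 and 9 in U2932, and 21 and 6 for the responses at 24 h and 12 h. Leaving out any libraries gave 0 to 29, 0 to 13 and 0 to 26 in Ly1, 0 to 13, 0 to 1 and 0 to 9 in U2932, 21 to 37 in DMSO, and 0 to 21 and 0 to 6 for the responses. Without Ly1 24 h replicate 3 alone, 12 members were called at 24 h, 10 for 24 h against 12 h and 1 for the response at 24 h, where 21.2%, 19.5% and 3.57% of all genes were. Without Ly1 DMSO replicate 3 alone, 9 were called at 24 h and 2 at 12 h, where 5.67% and 0.618% of all genes were. Values changed sign, and were called, without replicate 3 of every group for ORC1 at 24 h in Ly1 (-0.23), PRIM2 (-0.18) and TK1 (0.27) between the lines in DMSO, and MCM4 in the response at 24 h (0.33). With 3 libraries a group, small changes in a few genes may not have been detectable.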
